A study of Mus musculus with 8 samples.

Results

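Fatty acid handling was described here through 46 genes chosen by name: 9 for uptake, 3 for activation, 4 for the carnitine shuttle, 15 for mitochondrial beta-oxidation, 4 thioesterases and fuel switches, 6 for storage and lipolysis, and 5 transcriptional regulators. Their rows were found by gene symbol among the 49315 genes of the deposited count tables, and all 46 had a row. RNA was sequenced from entire hearts of mice at the embryonic stage E18.5, shortly before birth. Of the 8 libraries, 4 came from wild-type (WT) hearts and 4 from hearts homozygous for the M195I change in CHD4, called mutants here. CHD4 is an ATPase that moves nucleosomes and belongs to the NuRD complex, which also removes histone acetyl groups. No Cre or transgene is named in the labels. The labels give neither strain nor litter and do not say whether hearts were pooled, so p-values measure the spread between these libraries. Column headers in the files begin with "Male", and the Y-linked transcript Ddx3y was present in all 8 libraries, at 70.2 to 80.4 CPM (counts scaled to library size) in 7 and at 35.5 CPM in WT replicate 4. The comparison asks which fatty acid transcripts differ in level between mutant and WT hearts.

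Libraries held 18375951 to 21341235 counts. The heart label was checked against cardiomyocyte transcripts, of which troponin T (Tnnt2) averaged 7098 CPM in WT after scaling by the TMM method of edgeR. Transcripts of airway and lung epithelium differed widely between libraries: Scgb3a2, a secretoglobin of the airways, reached 176 to 498 CPM (unscaled by TMM) in 5 libraries, WT 1, 3, 4 and mutant 3, 4, but at most 6.48 CPM in the remaining 3. The summed level of 12 lung epithelium markers was 26.7 to 561 CPM in WT and 27.7 to 858 CPM in mutants. Exons of 12 of the 46 genes overlap those of another gene, and without a stated strand setting such reads cannot be told apart. The overlaps of Cpt1b, Etfb, Acadvl and Fabp3 are given with their values, Lipe has 15.6% of its exon length in overlap, and the other 7 have 9.91% or less. The 7 white fat markers summed to 0.549 to 2.33 CPM in WT and 0.516 to 1.10 CPM in mutants, leptin (Lep) was at 0 in all 8 libraries, and the brown fat uncoupling protein Ucp1 averaged 0.0125 CPM in WT, and mutants had 0.0120 CPM. The whole list of 7 brown fat markers summed to 66.5 to 72.3 CPM in WT and 62.2 to 73.2 CPM in mutants. Prdm16, a transcription factor and the most abundant of that list, averaged 39.2 CPM in WT hearts, and 0 of the 4 brown fat markers tested passed with edgeR, with an unadjusted p under 0.05, with DESeq2 or with limma-voom.

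The heart takes up fatty acids that lipoprotein lipase frees from circulating triglyceride at the capillary wall. Inside the cell they are bound by fatty acid binding proteins, activated to acyl-CoA, and either stored as triglyceride in lipid droplets or carried into mitochondria through carnitine and shortened stepwise by beta-oxidation. The fetal heart relies largely on glucose and lactate, and its fatty acid oxidation genes are induced around birth under the nuclear receptors PPAR-alpha and ERR with their coactivators of the PGC-1 family.

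In WT hearts the genes spanned several orders of magnitude in level per exon length (TPM, counts per exon length scaled to 1 sum per library, mean ± SD, n = 4). The highest was Fabp3, the fatty acid binding protein of heart muscle, at 3304 ± 212 TPM. Long-chain acyl-CoA dehydrogenase, Acadl, followed at 1109 ± 50 TPM and the thiolase Acaa2 at 847 ± 47.4 TPM. The uptake receptor Cd36 stood at 384 ± 20.2 TPM and the lipase Lpl at 273 ± 10.6 TPM. The carnitine shuttle genes were close to each other, from 46.95 TPM (Slc25a20) to 72.8 TPM (Cpt2), and below 13 of the 15 beta-oxidation genes. Cpt1b, the muscle isoform of the outer membrane carnitine acyltransferase, stood at 67.8 ± 4 TPM and the liver isoform Cpt1a at 71.3 ± 2.8 TPM, so their ranges overlapped. The Cpt1b level is uncertain, as 81.4% of its exon length is shared with the same-strand gene Chkb, so the true order of both isoforms is open. Storage genes ranged from 76.0 ± 3.3 TPM for Pnpla2 down to 9.14 ± 0.75 TPM for Lipe. Ucp3, a mitochondrial uncoupling protein of muscle, was nearly absent at 0.642 ± 0.23 TPM.

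**Figure D1:**
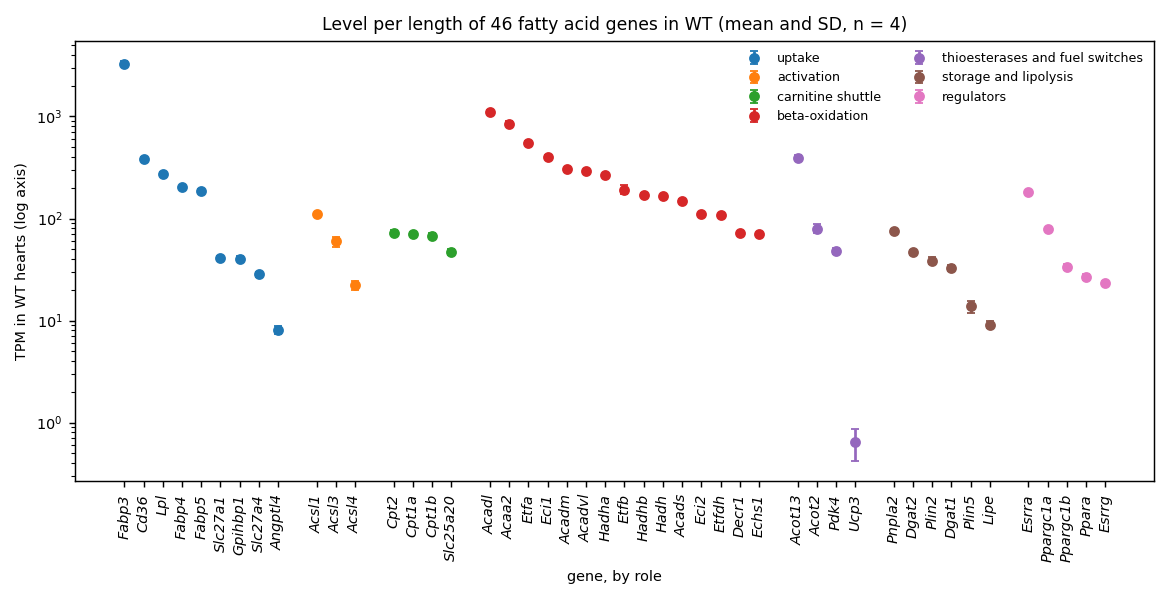
Level per exon length (TPM, log axis) of the 46 genes in WT hearts, grouped by role, with the mean and SD over 4 libraries. Fabp3 is highest at 3304 TPM, the carnitine shuttle genes lie close together between 46.95 and 72.8 TPM, and Ucp3 is lowest at 0.642 TPM.

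Most fatty acid transcripts that differed between the genotypes were lower in the mutant hearts. Of the 46 genes, 45 passed the filter on low counts and were tested, and 23 fell (edgeR quasi-likelihood test, Benjamini-Hochberg adjusted p under 0.05 over all tested genes), where 7.49% of all 16372 tested genes fell. Plin2, which coats lipid droplets, was the 1 gene that rose, where 5.75% of all genes rose. The median log2 fold change (mutant minus WT) over the 45 genes was -0.15, beside 0.00 over all tested genes, and 40 of the 45 values were negative. In 21 of the 46 genes every mutant library lay below every WT library, where 9.77% of all genes did so, and Plin2 was the 1 gene with the reverse order, where 8.80% did. By role, 7 of 9 uptake genes, 1 of 3 activation genes, 0 of 4 carnitine shuttle genes, 8 of 15 beta-oxidation genes, 1 of 3 tested thioesterases and fuel switches, 4 of 6 storage genes and 2 of 5 regulators fell. The test of DESeq2 and that of limma-voom each put 24 genes lower and 1 higher. Over all genes DESeq2 put 1231 lower and 941 higher, and limma-voom 1233 lower and 927 higher. Most changes were modest: the called decreases ran from -0.15 (Etfa) to -0.63 (Dgat2).

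Levels of cardiomyocyte transcripts moved in the same direction. Of 12 cardiomyocyte markers 4 fell, where 7.49% of all genes did, and 12 had a negative value, with a median of -0.15. Their summed level was 64780.0 to 72800.0 CPM in WT and 55240.0 to 61550.0 CPM in mutants, without overlap. The abundant myosins Myh6 (-0.37 ± 0.12, adjusted p = 0.0959) and Myh7 (-0.16 ± 0.055, adjusted p = 0.0755) weigh heavily in that sum and did not pass with edgeR. DESeq2 put 7 of the 12 cardiomyocyte markers lower and 0 higher, where it put 1231 of all genes lower and 941 higher. With limma-voom 4 were lower and 0 higher. Of 9 endothelial markers 2 fell and 1 rose, where 5.75% of all genes rose, with summed levels of 1396 to 1517 CPM in WT and 1339 to 1463 CPM in mutants. Of 8 fibroblast markers 2 fell and 0 rose, with summed levels of 7372 to 9781 CPM in WT and 8029 to 8834 CPM in mutants. Tnnt2 (-0.04 ± 0.05, adjusted p = 0.708) and Ttn (-0.00 ± 0.04, adjusted p = 0.983) did not pass, whereas the actin Actc1 fell (-0.44 ± 0.06, adjusted p = 0.000176). In whole hearts, fewer cells of a type and less RNA per cell cannot be told apart, and the part of cell make-up in the differences of the fatty acid genes was not tested. The 9 erythroid markers summed to 2035 to 3894 CPM in WT and 1254 to 1974 CPM in mutants. Of these 9, 7 had a negative value, but 0 passed with edgeR (smallest adjusted p = 0.077) or limma-voom. DESeq2 put 4 of the 9 lower, where it put 1231 of all genes lower.

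**Figure D2:**
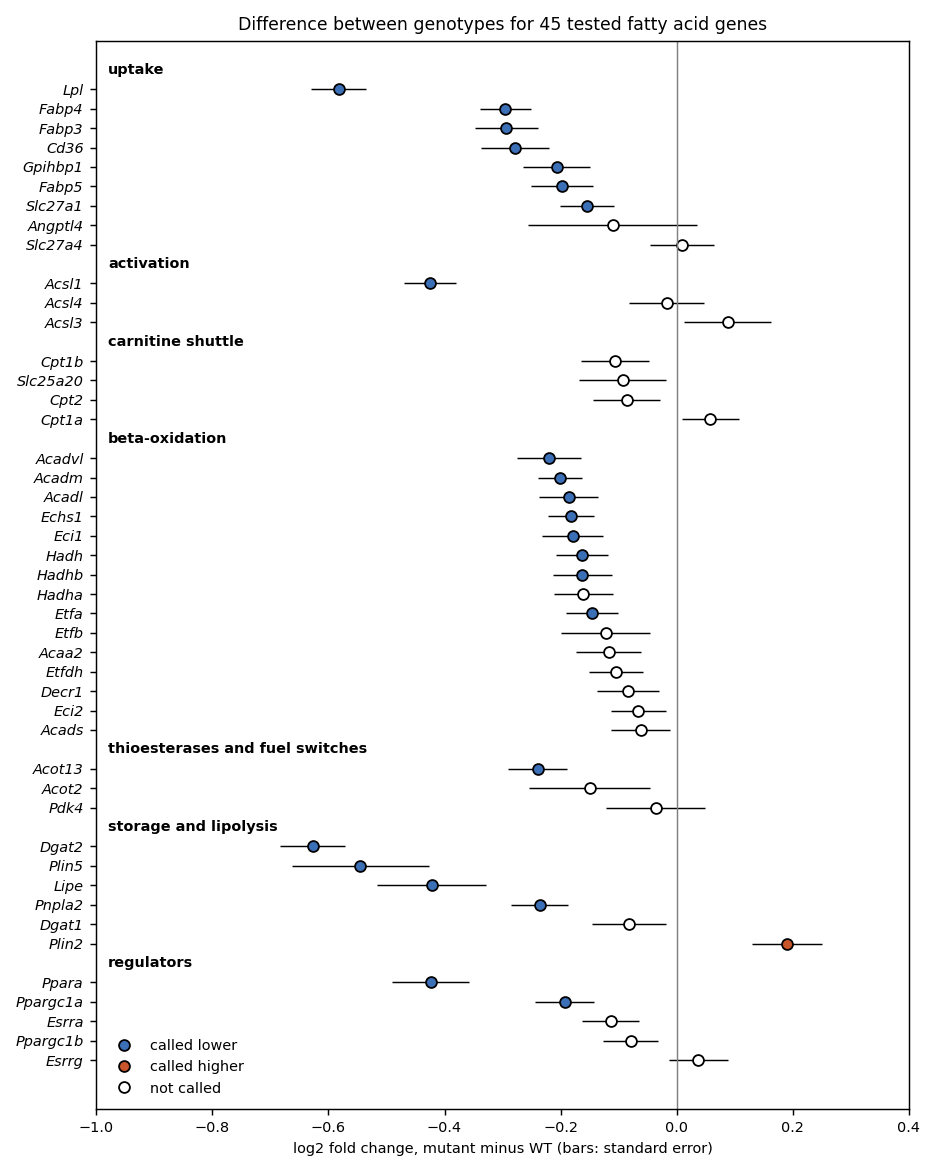
Log2 fold change (mutant minus WT, x axis) with its standard error for the 45 tested genes, grouped by role. Filled blue points are genes called lower, the filled orange point is Plin2, and open points did not pass. Dgat2 (-0.63), Lpl (-0.58) and Plin5 (-0.55) lie farthest left, and the 4 carnitine shuttle genes are all open.

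The count of genes that fell depended on single libraries and on scaling. It ranged from 13 to 25 when each library was left out in turn, with 14 without WT replicate 2 (6.04% of all genes fell), 15 without WT replicate 4 (5.58%) and 13 without mutant replicate 4 (5.80%). Over all genes 899 to 1137 fell in the 8 fits that leave out a library. With library totals in place of TMM, 15 fell (5.24% of all genes did) and Plin2 alone rose. Over all genes that scaling gave 858 lower and 1856 higher calls in place of 1226 and 942, and so raised the share of higher calls from 43.5% to 68.4%. Within the 5 libraries with airway transcripts 19 genes fell, where 6.33% of all genes did. Within the other 3 libraries 21 fell, where 4.84% of all genes did. The WT side of that fit is replicate 2 alone, which is assumed to vary like the mutants and stands above the WT mean in 38 of the 46 genes, so each value of that fit rests on this 1 library. Whichever library was left out, these 13 genes kept their call: Lpl, Cd36, Fabp3, Fabp4, Acsl1, Acadm, Echs1, Acot13, Pnpla2, Lipe, Plin5, Dgat2 and Ppara.

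Of the 9 uptake genes 7 fell and none rose. The clearest was Lpl, the lipase that frees fatty acids from triglyceride-rich lipoproteins and, in the heart, is made by the muscle cells. Lpl (chr8:68880491-68907448, GRCm38) stood at 953, 1046, 901 and 939 CPM in WT replicates 1 to 4 and 654, 668, 619.9 and 621 CPM in mutant replicates 1 to 4. All mutant libraries lay well below all WT libraries, and its log2 fold change was -0.58 ± 0.05, adjusted p = 6.2e-06, a level lower by 33.2%. Gpihbp1, the endothelial protein that carries the lipase to the capillary lumen, stood at 37.4, 35.8, 32.4 and 33.3 CPM in WT replicates 1 to 4 and 28.8, 32.4, 30.0 and 29.1 CPM in mutant replicates 1 to 4. Its mutant libraries lay below the WT ones by a narrow gap, with mutant replicate 2 at 32.38 CPM and WT replicate 3 at 32.44 CPM (-0.21 ± 0.06, adjusted p = 0.0272). Leaving out WT replicate 1 or 2, or mutant replicate 1, 3 or 4, ended that call (adjusted p from 0.0695 to 0.0951). It also ended with library totals (adjusted p = 0.0754) and within the libraries with airway transcripts (0.0672) or without them (0.244). Angptl4, a secreted inhibitor of the lipase, was scarce at 8.90 ± 0.93 CPM (WT) and 8.23 ± 1.9 CPM (mutant) and did not pass (-0.11 ± 0.15, adjusted p = 0.705). Its mutant libraries spread widely, from 6.81 CPM in replicate 4 to 11.1 CPM in replicate 2.

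Cd36, the membrane receptor for long-chain fatty acids, stood at 475, 499, 421 and 456 CPM in WT replicates 1 to 4 and 385, 415, 349.6 and 376 CPM in mutant replicates 1 to 4. The groups did not overlap, although the highest mutant library lay only just below WT replicate 3 (-0.28 ± 0.06, adjusted p = 0.00711). The 3 cytosolic binding proteins fell together. Fabp3 stood at 898, 1028, 833 and 896 CPM in WT replicates 1 to 4 and 759, 756, 736 and 731 CPM in mutant replicates 1 to 4, with mutant libraries far closer to each other than the WT ones (-0.29 ± 0.05, adjusted p = 0.00224). WT replicate 2 was the highest WT library for Fabp3, and without it the change was -0.23 (adjusted p = 0.00143). Exons of Fabp3 overlap those of the opposite-strand genes Zcchc17 and Gm10570 over 19.6% of its length, and Zcchc17 itself was at 0.08 ± 0.06, adjusted p = 0.427.

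Fabp4, the binding protein of capillary endothelium and fat cells, stood at 309, 327, 285 and 296 CPM in WT replicates 1 to 4 and 247, 255, 247 and 244 CPM in mutant replicates 1 to 4. Every mutant library was below every WT library (-0.29 ± 0.04, adjusted p = 0.000417). The fat cell marker Adipoq, beside it, averaged 0.298 CPM in WT hearts and 0.148 CPM in the mutants. Fabp5, found in endothelium and skin, went from 225 ± 14.1 to 197 ± 13.1 CPM (-0.20 ± 0.05, adjusted p = 0.0249). Leaving out WT replicate 2 or 4, or mutant replicate 3 or 4, ended the call (adjusted p from 0.065 to 0.101). Fabp4 and Fabp5 lie on chromosome 3, 187480 bases apart. Of the acyl-CoA synthetase transporters of the plasma membrane, Slc27a1 fell (-0.15 ± 0.05, adjusted p = 0.0398), but its groups overlapped. Leaving out any library except WT replicate 3 ended the call (adjusted p from 0.0558 to 0.114), as did library totals (adjusted p = 0.119) and the fits within libraries with (0.0856) or without airway transcripts (0.0907). Slc27a4 stood at 42.0 ± 1.6 CPM (WT) and 42.3 ± 3 CPM (mutant) and did not pass (0.01 ± 0.06, adjusted p = 0.955).

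**Figure D3:**
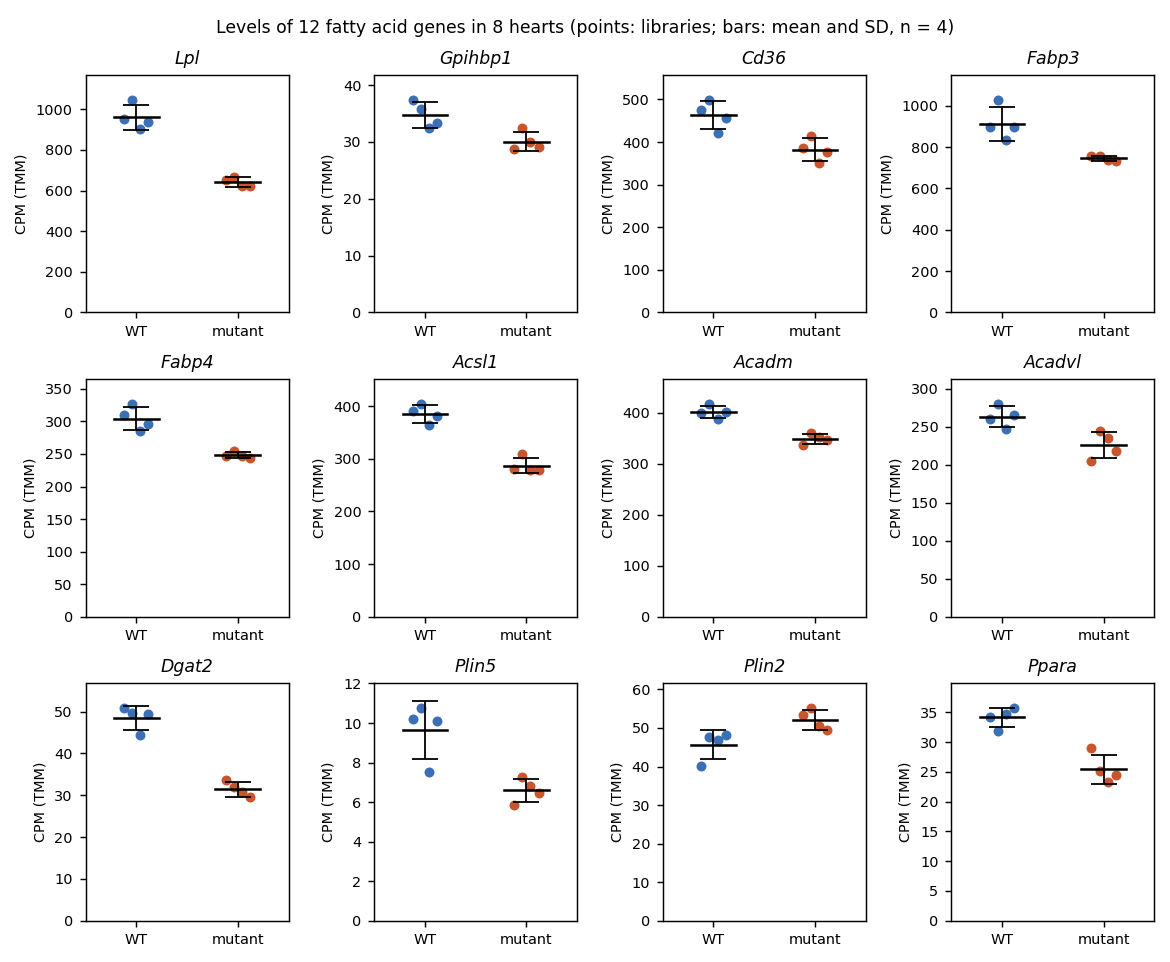
Level (CPM scaled by TMM, y axis from 0) of 12 fatty acid genes in each of the 8 libraries, by genotype, with the mean and SD (n = 4). In 11 of the 12 genes every mutant point lies below every WT point, by a narrow gap in Gpihbp1, Cd36 and Acadvl, and in Plin2 every mutant point lies above.

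Of the acyl-CoA synthetases, which trap fatty acids in the cell by joining them to coenzyme A, 1 of 3 fell. Acsl1, the main form of heart muscle, stood at 391, 404, 365 and 381 CPM in WT replicates 1 to 4 and 281, 309, 278 and 279.6 CPM in mutant replicates 1 to 4. The lowest WT library was well above the highest mutant library, and the change was -0.42 ± 0.04, adjusted p = 3.8e-05. Acsl3, a form of the endoplasmic reticulum and lipid droplets, stood at 86.4, 77.5, 96.6 and 88.7 CPM in WT replicates 1 to 4 and 105, 89.9, 89.0 and 87.8 CPM in mutant replicates 1 to 4. The groups overlapped and it did not pass (0.09 ± 0.07, adjusted p = 0.52), and within the 5 libraries with airway transcripts it was at -0.04 (adjusted p = 0.705). Within the other 3 libraries its value was 0.33 (adjusted p = 0.0044), which sets WT replicate 2, the lowest of all 8 libraries, against mutant replicates 1, the highest, and 2. Acsl4, which prefers arachidonic acid, was at 40.1 ± 3.4 CPM (WT) and 39.7 ± 2.7 CPM (mutant) and did not pass (-0.02 ± 0.07, adjusted p = 0.919).

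None of the 4 carnitine shuttle genes was called by the quasi-likelihood test, by DESeq2 or by limma-voom, and 0 of 4 had an unadjusted p under 0.05. Cpt1a, the form of liver and fetal heart that loads acyl groups onto carnitine, stood at 104, 101, 99.9 and 105 CPM in WT replicates 1 to 4 and 99.7, 117, 109 and 102 CPM in mutant replicates 1 to 4. Its groups overlapped (0.06 ± 0.05, adjusted p = 0.507). Cpt1b, the form that takes over in adult heart, stood at 77.2, 83.4, 68.8 and 78.0 CPM in WT replicates 1 to 4 and 76.5, 73.0, 69.9 and 66.3 CPM in mutant replicates 1 to 4, again with overlap (-0.11 ± 0.06, adjusted p = 0.281). Cpt1b exons are shared over 81.4% of their length with Chkb, a choline kinase gene on the same strand, so its reads cannot be cleanly told from those of Chkb (-0.14 ± 0.05, adjusted p = 0.0981). The carnitine carrier of the inner membrane, Slc25a20, was at 76.5 ± 7.7 CPM (WT) and 71.7 ± 5.6 CPM (mutant) (-0.09 ± 0.07, adjusted p = 0.488). Cpt2, which returns acyl groups to coenzyme A in the matrix, was at 58.4 ± 4.5 CPM (WT) and 55.0 ± 3.1 CPM (mutant) (-0.09 ± 0.06, adjusted p = 0.387). These values do not show that the shuttle genes were equal between genotypes, only that differences of this size did not pass.

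All 15 beta-oxidation genes had negative log2 fold changes, and 8 passed. They lay in a narrow band from -0.22 to -0.06, with a median of -0.16. The acyl-CoA dehydrogenases, which take the first step, are ordered by chain length. The very-long-chain form Acadvl stood at 260.4, 279, 246 and 265 CPM in WT replicates 1 to 4 and 205, 244, 235 and 218 CPM in mutant replicates 1 to 4, without overlap between groups (-0.22 ± 0.06, adjusted p = 0.0172). Leaving out WT replicate 2 or 4, or mutant replicate 4, ended its call (adjusted p from 0.0508 to 0.0566), and 42.9% of its exon length overlaps Dvl2, a Wnt signalling gene on the other strand (-0.11 ± 0.05, adjusted p = 0.175). The long-chain form Acadl stood at 727, 827, 709 and 724 CPM in WT replicates 1 to 4 and 637, 699, 651 and 639 CPM in mutant replicates 1 to 4. WT replicate 2 was far above the other WT libraries, and the change was -0.19 ± 0.05, adjusted p = 0.024, which did not pass without mutant replicate 1, 3 or 4 (adjusted p from 0.0632 to 0.0764) or with library totals (adjusted p = 0.0513). The medium-chain form Acadm stood at 399, 417, 388 and 402 CPM in WT replicates 1 to 4 and 338, 362, 352 and 346 CPM in mutant replicates 1 to 4. Libraries of each genotype were tightly grouped, the groups were apart, and its call held without any 1 library (-0.20 ± 0.04, adjusted p = 0.00258). The short-chain form Acads was at 113 ± 7.2 CPM (WT) and 108 ± 6 CPM (mutant) and did not pass (-0.06 ± 0.05, adjusted p = 0.484).

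Hadha and Hadhb encode the alpha and beta subunits of the mitochondrial trifunctional protein, which performs the later steps for long chains. They lie head to head on chromosome 5 and leave 85 bases between their annotated ends, at chr5:30155163-30155247. This stretch (GRCm38.p6, RefSeq promoter table, read on the plus strand, the direction of Hadhb) is shown because both transcripts start from its sides, with the GC box letters GGGCGG in capitals.
Hadha-Hadhb: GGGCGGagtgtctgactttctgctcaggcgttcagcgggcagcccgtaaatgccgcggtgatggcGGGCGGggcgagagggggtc
It holds 69.4% G and C. The GC box, CCGCCC on the other strand, was present in 29 of 42 promoters of these genes in that table (69.0%) and in 35.7% of all 32851 promoters (250 bases before to 50 after the start). All promoters were counted whether or not their genes were expressed here, while 45 of the 46 genes passed the filter on low counts. The shares therefore come from unlike sets, and whether the gap is a trait of fatty acid genes was not tested. Hadha stood at 765, 835, 727 and 777 CPM in WT replicates 1 to 4 and 667, 756, 691 and 662 CPM in mutant replicates 1 to 4, and Hadhb at 368, 414, 352 and 366 CPM in WT replicates 1 to 4 and 327, 358, 323 and 331 CPM in mutant replicates 1 to 4. Their log2 fold changes were nearly equal, -0.16 ± 0.05 (adjusted p = 0.0502) for Hadha and -0.16 ± 0.05 (adjusted p = 0.0464) for Hadhb, which places them on opposite sides of the threshold. Hadha passed with DESeq2 (adjusted p = 0.0186) and limma-voom (0.0448) and without WT replicate 3 (0.0336) or mutant replicate 2 (0.0147). For Hadhb, leaving out WT replicate 1, 2 or 4, or mutant replicate 1, 3 or 4, ended the call (adjusted p from 0.078 to 0.151), as did library totals (0.115) and RLE scaling (0.0533). Within each library the ratio of Hadha to Hadhb in TPM was 1.57, 1.52, 1.56 and 1.60 in WT replicates 1 to 4 and 1.54, 1.59, 1.61 and 1.51 in mutant replicates 1 to 4. The groups overlapped in this ratio, with a mean of 1.56 in each.

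Among the remaining enzymes of the spiral, Echs1, the enoyl-CoA hydratase, stood at 189.9, 204, 194 and 199 CPM in WT replicates 1 to 4 and 177, 181, 170.4 and 166 CPM in mutant replicates 1 to 4. It had no overlap and kept its call without any 1 library (-0.18 ± 0.04, adjusted p = 0.007), but not within the 3 libraries without airway transcripts (-0.18, adjusted p = 0.127). Hadh, the medium- and short-chain hydroxyacyl-CoA dehydrogenase, went from 280.4 ± 10.8 to 250.5 ± 13.6 CPM (-0.16 ± 0.04, adjusted p = 0.0249), which did not pass when WT replicate 1, 2 or 4, or mutant replicate 1 or 4, was left out (adjusted p from 0.0596 to 0.0734). The thiolase Acaa2, which ends each cycle, was at 431 ± 34.3 CPM (WT) and 397 ± 21.3 CPM (mutant) and did not pass (-0.12 ± 0.06, adjusted p = 0.202). Of the auxiliary enzymes for unsaturated chains, Eci1 went from 148 ± 10.4 to 130.3 ± 7 CPM (-0.18 ± 0.05, adjusted p = 0.0352), which did not pass when WT replicate 1, 2 or 4, or mutant replicate 1, 3 or 4, was left out (adjusted p from 0.0538 to 0.0997). Eci2 (-0.07 ± 0.05, adjusted p = 0.424) and the dienoyl-CoA reductase Decr1 (-0.08 ± 0.05, adjusted p = 0.349) did not pass. Of the electron transfer flavoprotein and its oxidoreductase, which pass electrons to the respiratory chain, the alpha subunit Etfa went from 342 ± 19 to 309 ± 12 CPM (-0.15 ± 0.04, adjusted p = 0.0409). Leaving out the same libraries as for Eci1 ended its call (adjusted p from 0.0589 to 0.109), and the beta subunit Etfb (-0.12 ± 0.08, adjusted p = 0.36) and Etfdh (-0.10 ± 0.05, adjusted p = 0.169) did not pass. Within the 3 libraries without airway transcripts Etfb (-0.39, adjusted p = 0.000305) and Acaa2 (-0.23, adjusted p = 0.0359) passed. Etfb exons overlap those of Gm45233 and Mir7051 over 58.25% of their length. With library totals Hadh (adjusted p = 0.08), Eci1 (0.0752) and Etfa (0.126) did not pass, nor did they within the 5 libraries with airway transcripts (adjusted p = 0.125, 0.0819 and 0.109).

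Of the thioesterases, which release free fatty acid from acyl-CoA, Acot13 stood at 92.9, 108, 89.2 and 93.5 CPM in WT replicates 1 to 4 and 80.4, 83.0, 80.8 and 80.6 CPM in mutant replicates 1 to 4. Mutant libraries were close to each other and all below WT (-0.24 ± 0.05, adjusted p = 0.00615). The mitochondrial matrix form Acot2 was at 58.9 ± 6.8 CPM (WT) and 53.0 ± 6.2 CPM (mutant) and did not pass (-0.15 ± 0.10, adjusted p = 0.421). Pdk4, the kinase that shuts pyruvate dehydrogenase when fatty acids are burned, stood at 55.7, 56.4, 53.8 and 62.6 CPM in WT replicates 1 to 4 and 52.0, 65.5, 56.1 and 49.0 CPM in mutant replicates 1 to 4. Its libraries overlapped across genotypes (-0.04 ± 0.09, adjusted p = 0.856). Ucp3 did not reach the filter on low counts and was not tested. It stood at 0.762, 0.599, 0.396 and 0.944 CPM in WT replicates 1 to 4 and 0.211, 0.186, 0.413 and 0.192 CPM in mutant replicates 1 to 4, too scarce for a fold change here, with 1 mutant library, replicate 3, above WT replicate 3.

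Storage and lipolysis genes held both the largest decrease and the single increase. Dgat2, which makes the final bond of triglyceride, stood at 50.8, 49.7, 44.3 and 49.4 CPM in WT replicates 1 to 4 and 33.6, 31.9, 30.7 and 29.5 CPM in mutant replicates 1 to 4. Mutant levels were 29.5 to 33.6 CPM against 44.3 to 50.8 CPM in WT, with a change of -0.63 ± 0.06, adjusted p = 9.9e-06, a level lower by 35.3%. Dgat1, the unrelated enzyme for the same reaction, was at 33.8 ± 3 CPM (WT) and 32.0 ± 1.6 CPM (mutant) and did not pass (-0.08 ± 0.06, adjusted p = 0.461). Dgat2, Lpl and Plin5 (lower by 31.5%) had the largest decreases of the 45 tested genes.

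The droplet coat proteins went opposite ways. Plin5, the coat protein of oxidative muscle that ties droplets to mitochondria, stood at 10.2, 10.7, 7.52 and 10.1 CPM in WT replicates 1 to 4 and 5.86, 7.26, 6.81 and 6.48 CPM in mutant replicates 1 to 4. WT replicate 3 was close to the mutant libraries but above all 4, and the change was -0.55 ± 0.12, adjusted p = 0.00654. Plin2, the general droplet coat protein, stood at 40.1, 47.5, 46.9 and 48.1 CPM in WT replicates 1 to 4 and 53.4, 55.1, 50.5 and 49.5 CPM in mutant replicates 1 to 4. WT replicate 1 was lowest and the mutants were all above WT, but by little (0.19 ± 0.06, adjusted p = 0.0482). The rise in Plin2 was lost without any 1 library but mutant replicate 4 (adjusted p from 0.0523 to 0.142), and within the libraries with airway transcripts (0.15, adjusted p = 0.221) and without them (0.20, adjusted p = 0.222). Both lipases of stored triglyceride fell and kept their calls without any 1 library. Pnpla2, adipose triglyceride lipase, which cuts the first acyl chain, stood at 74.6, 84.2, 72.1 and 77.5 CPM in WT replicates 1 to 4 and 65.2, 66.7, 67.1 and 62.8 CPM in mutant replicates 1 to 4. The groups were apart (-0.24 ± 0.05, adjusted p = 0.00496). Lipe, hormone-sensitive lipase, stood at 19.6, 18.7, 15.9 and 18.1 CPM in WT replicates 1 to 4 and 11.2, 15.3, 14.0 and 13.3 CPM in mutant replicates 1 to 4, with mutant replicate 1 lowest (-0.42 ± 0.09, adjusted p = 0.00805).

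Of the 5 regulators 2 fell. Ppara encodes the nuclear receptor that senses fatty acids and activates many genes described above. It stood at 34.3, 31.9, 34.8 and 35.7 CPM in WT replicates 1 to 4 and 28.9, 25.1, 23.3 and 24.5 CPM in mutant replicates 1 to 4. Every mutant library lay below every WT library (-0.42 ± 0.07, adjusted p = 0.000647), and the change was -0.55 within the libraries with airway transcripts (adjusted p = 6.5e-05) and -0.24 within the 3 without them (adjusted p = 0.22). Ppargc1a, the coactivator PGC-1 alpha, stood at 168, 176, 169 and 180.0 CPM in WT replicates 1 to 4 and 159, 162, 136 and 149 CPM in mutant replicates 1 to 4. Mutant replicate 3 was lowest (-0.19 ± 0.05, adjusted p = 0.0202). Leaving out WT replicate 2 or 4, or mutant replicate 3 or 4, ended its call (adjusted p from 0.0567 to 0.084), as did library totals (adjusted p = 0.0611) and the 3 libraries without airway transcripts (adjusted p = 0.351). The related coactivator Ppargc1b was at 44.9 ± 2.2 CPM (WT) and 42.5 ± 0.84 CPM (mutant) and did not pass (-0.08 ± 0.05, adjusted p = 0.327). Of the estrogen-related receptors, Esrra was at 155 ± 7.2 CPM (WT) and 143 ± 9.3 CPM (mutant) (-0.11 ± 0.05, adjusted p = 0.144) and Esrrg at 48.8 ± 1.2 CPM (WT) and 50.1 ± 3.2 CPM (mutant) (0.04 ± 0.05, adjusted p = 0.717), and neither passed. Esrra passed without mutant replicate 3, its highest mutant library (adjusted p = 0.0441), and within the 3 libraries without airway transcripts (0.0137).

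Promoters were read for sites of these receptors. The RefSeq table (GRCm38.p6) held 42 promoters of 34 of the 46 genes. On either strand, the 9-letter ERR site TCAAGGTCA was in none of the 42 and in 0.423% of all 32851 promoters. An exact direct repeat of AGGTCA with 1 base between, the letters of a PPAR site, was in none of the 42 and in 0.0396% of all. Exact matches are so rare over all promoters that their absence from 42 does not show a lack of receptor sites. The 6-letter receptor site AGGTCA alone, searched after these were absent, was in 9 of the 42 (21.4%) and in 16.3% of all promoters. It is contained in both longer sites, and this background too counts promoters of genes not expressed here. These 4 windows before the start show it, in capitals (AGGTCA or its complement TGACCT), in genes that fell (Cd36 and Plin5), rose (Plin2) or did not pass (Cpt1a). They are written 5′ to 3′ on each gene's own strand.
Cd36: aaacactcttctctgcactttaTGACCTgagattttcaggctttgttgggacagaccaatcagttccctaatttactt
Plin5: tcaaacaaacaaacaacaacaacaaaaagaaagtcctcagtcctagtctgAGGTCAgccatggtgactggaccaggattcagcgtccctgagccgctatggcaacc
Plin2: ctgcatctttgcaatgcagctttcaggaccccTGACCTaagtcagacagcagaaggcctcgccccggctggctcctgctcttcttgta
Cpt1a: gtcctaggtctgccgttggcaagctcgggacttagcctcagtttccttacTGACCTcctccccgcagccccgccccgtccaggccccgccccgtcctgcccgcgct
They lie at chr5:17836069-17836146 (minus strand), chr17:56117663-56117768 (minus), chr4:86670222-86670309 (minus) and chr19:3323157-3323262 (plus), and the capitals begin 228, 170, 218 and 94 bases before the start. A match in letters is a description of these windows and not a site.

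Ratios between related genes within a library do not depend on scaling. The ratio of Dgat1 to Dgat2 in TPM was 0.687, 0.761, 0.688 and 0.674 in WT replicates 1 to 4 and 1.03, 0.974, 1.04 and 1.07 in mutant replicates 1 to 4, so the mutants had about equal amounts of both where WT had more Dgat2. Acsl3 over Acsl1 was 0.547 ± 0.073 in WT and 0.780 ± 0.083 in mutants. Plin2 over Plin5 was 2.87 ± 0.59 in WT and 4.72 ± 0.47 in mutants, and Lpl over Gpihbp1 was 6.74 ± 0.38 in WT and 5.20 ± 0.24 in mutants. Lpl over Angptl4 was 34.0 ± 2.5 in WT and 25.2 ± 4.3 in mutants. In these 5 of the 13 ratios computed the groups did not overlap. Each of the 5 holds Dgat2, Acsl1, Plin5 or Lpl, which were already called lower, so the separation restates those calls and adds no further evidence. In the other 8 they did, among them Slc27a1 over Slc27a4 (1.46 ± 0.12 in WT and 1.30 ± 0.094 in mutants), Acsl1 over Acsl4 (4.99 ± 0.55 in WT and 3.75 ± 0.42 in mutants), Esrra over Esrrg (7.76 ± 0.34 in WT and 7.02 ± 0.79 in mutants), Etfa over Etfb (2.90 ± 0.19 in WT and 2.83 ± 0.085 in mutants) and Fabp3 over Fabp5 (17.6 ± 0.72 in WT and 16.5 ± 0.81 in mutants). Cpt1b over Cpt1a, by which fetal and adult forms can be compared, was 0.943, 1.05, 0.879 and 0.944 in WT replicates 1 to 4 and 0.979, 0.793, 0.816 and 0.833 in mutant replicates 1 to 4. Mutant replicate 1 lay within the WT range and the other 3 mutant libraries below it. Because Cpt1b shares most of its exon length with Chkb, this ratio is not a clean measure of both forms. Fabp3 over Fabp4, a muscle form over an endothelial one, was 16.4 ± 0.62 in WT and 16.4 ± 0.24 in mutants.

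**Figure D4:**
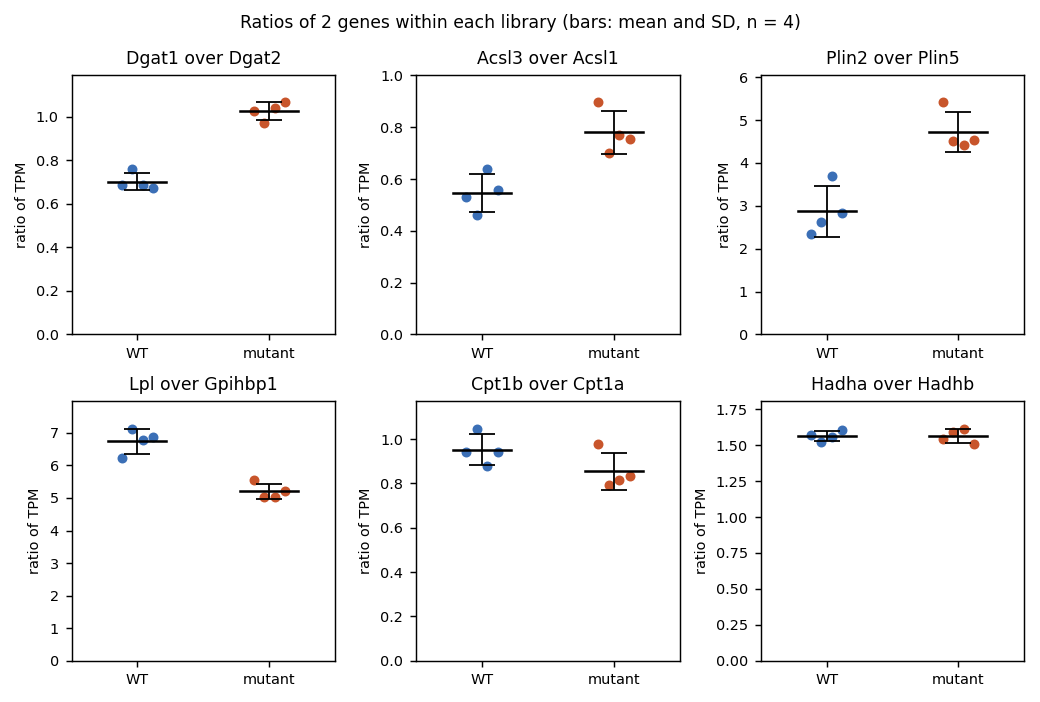
Ratio of TPM of 2 genes within each library (y axis from 0), by genotype, with mean and SD (n = 4). Dgat1 over Dgat2, Acsl3 over Acsl1 and Plin2 over Plin5 are higher in every mutant library, Lpl over Gpihbp1 is lower in every mutant library, and Hadha over Hadhb is 1.56 on average in both genotypes.

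Libraries also differed within a genotype in a way shared by many of the 46 genes. Taking each gene relative to its WT mean (log2 of CPM + 0.5), the median over the genes was -0.01, 0.10, -0.09 and 0.00 in WT replicates 1 to 4 and -0.19, -0.10, -0.16 and -0.22 in mutant replicates 1 to 4. WT replicate 2 was above the WT mean in 38 of the 46 genes and WT replicate 3 in 5. The lowest WT library, replicate 3, was thus close to the highest mutant library, replicate 2. In WT replicates 2, 4, 1 and 3, Scgb3a2 rose from 0.817 through 176 and 385 to 436 CPM, and the median fell throughout. In mutant replicates 2, 1, 3 and 4, Scgb3a2 was at 0.328, 6.48, 284 and 498 CPM. The median was highest in mutant replicate 2 and lowest in mutant replicate 4, but mutant replicate 1 lay below mutant replicate 3. The part of airway transcripts in these medians was not tested. With a lung epithelium score as a covariate, 24 of the 45 tested genes fell and Plin2 rose, where 9.74% of all genes fell and 7.37% rose.

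**Figure D5:**
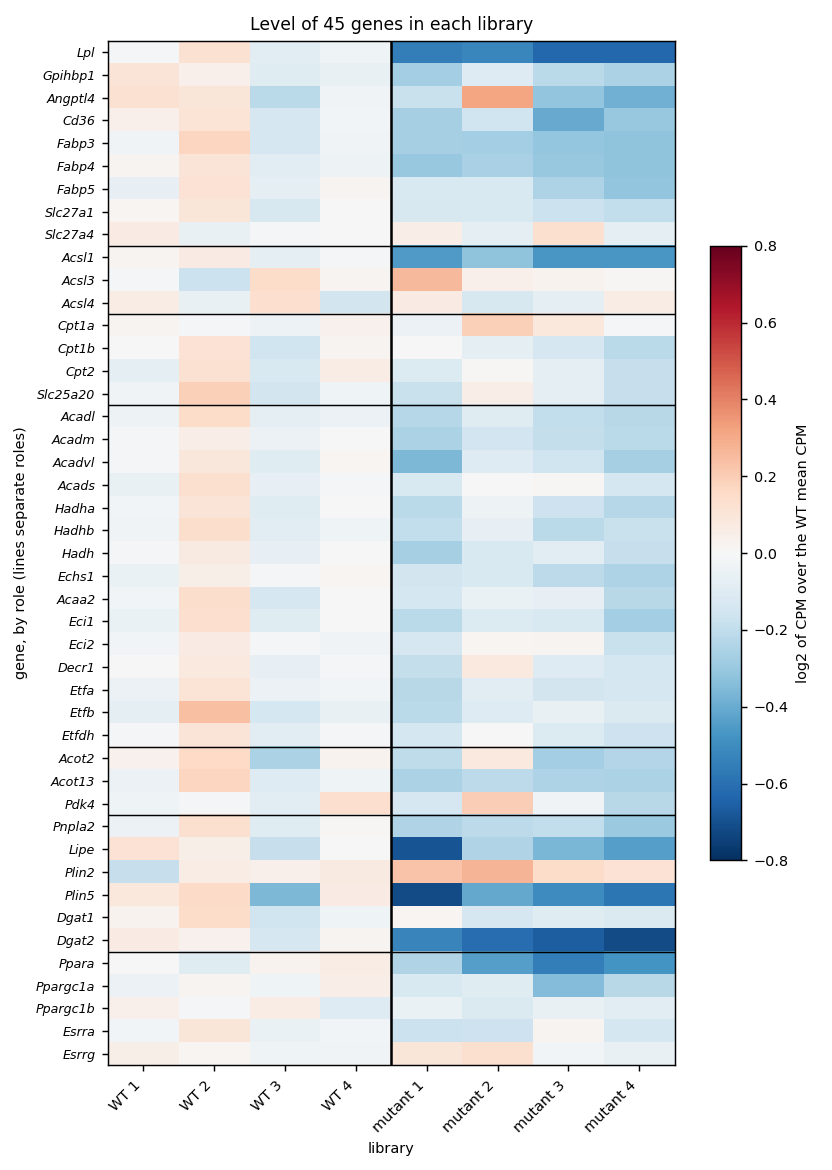
Level of the 45 tested genes (rows, by role, lines between roles) in each library (columns, WT left of the thick line), as log2 of CPM over the gene's WT mean. Blue (lower) fills most mutant columns, and WT replicate 2 is mostly pale red (higher). Plin2, Acsl3, Cpt1a, Esrrg and Slc27a4 had positive log2 fold changes, against the surrounding rows.

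Beyond the 46 genes, 166 other genes of fatty acid and lipid handling and of linked metabolism were listed by role and found in the files, and 145 of them were tested. Of these 33 fell and 3 rose, with a median of -0.07, where 7.49% of all genes fell and 5.75% rose. For uptake, 3 of 11 fell: the caveolar protein Cav1 (-0.18 ± 0.04, adjusted p = 0.00793), Got2 (-0.18 ± 0.05, adjusted p = 0.0218) and the lipoprotein receptor Vldlr (-0.29 ± 0.07, adjusted p = 0.0235). For activation and thioesterases, 3 of 16 fell, namely the scarce synthetase Acsl6 (-1.33 ± 0.30, adjusted p = 0.00776), the acetyl-CoA synthetase Acss1 (-0.21 ± 0.06, adjusted p = 0.0232) and the acyl-CoA binding protein Dbi (-0.14 ± 0.04, adjusted p = 0.0375). For carnitine and malonyl-CoA, 2 of 9 fell: Crat, carnitine acetyltransferase (-0.31 ± 0.05, adjusted p = 0.000647), and Mlycd, which breaks down the CPT1 inhibitor malonyl-CoA (-0.21 ± 0.06, adjusted p = 0.0471).

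Of 25 further genes of mitochondrial oxidation 6 fell, but this list also holds enzymes of ketone body and amino acid breakdown. It was led by Oxct1, which starts ketone body use, from 537 ± 14.8 to 440.3 ± 7.5 CPM (-0.29 ± 0.04, adjusted p = 0.000136). Next came 2 enzymes of branched-chain amino acid breakdown, Aldh6a1 (-0.22 ± 0.04, adjusted p = 0.00202) and Ivd (-0.19 ± 0.04, adjusted p = 0.00443). The count is therefore not one of fatty acid oxidation alone. Of 25 genes for glyceride synthesis, droplets and lipolysis 8 fell. Plin3 (-0.26 ± 0.04, adjusted p = 0.000587), the monoglyceride lipase Mgll (-0.45 ± 0.06, adjusted p = 0.00069) and Plin4 (-0.92 ± 0.10, adjusted p = 0.000797) had the smallest adjusted p, and Plin4 went from 93.0 ± 11.3 to 49.2 ± 4.8 CPM. For de novo synthesis 1 of 12 fell, Elovl1 (-0.25 ± 0.06, adjusted p = 0.0141), and 1 rose, the desaturase Fads2 (0.31 ± 0.10, adjusted p = 0.0456). Among 31 further regulators 9 fell, led by Klf15, a cardiac metabolic transcription factor (-0.50 ± 0.06, adjusted p = 0.000135), the receptor Esrrb (-0.59 ± 0.09, adjusted p = 0.000594) and the coregulator Perm1 (-0.35 ± 0.06, adjusted p = 0.00121). The 2 regulators that rose were the receptor Nr2f2 (0.27 ± 0.05, adjusted p = 0.00135) and the corepressor Nrip1 (0.21 ± 0.06, adjusted p = 0.043).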

How the data were processed

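Heart RNA was sequenced in 8 libraries, 4 WT and 4 mutant. The submitters' processing notes name Trimmomatic 0.36, STAR 2.5.2b, featureCounts from Subread 1.5.2 and the mouse build GRCm38. Neither a strand setting nor an annotation release is given there. The authors deposited whole-number, unnormalized counts of reads for each gene, once by library and once joined, and 0 values differed between both forms. Gene lengths come from the same deposited files. Symbols came from GENCODE M21, for 48970 of 49315 genes.

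Genes were kept by filterByExpr (minimum count 10), leaving 16372, scaled by TMM (factors 0.963 to 1.03) and tested in edgeR 4.0.16 (R 4.3.3) by robust quasi-likelihood, genotype alone in the model, at a Benjamini-Hochberg adjusted p under 0.05 over all tested genes. Standard errors come from that fit. TPM are counts divided by exon length and scaled to the same sum in each library. Replicates differed by more than sampling noise (chi-square per degree of freedom 2.89 to 9.35). The members and the other lists were chosen with earlier results of these data known. All 46 members are accounted for, and up to 3 called genes per direction are named for each other list, except 1 list that is not reported here and is counted in the totals. Alternatives used DESeq2 1.42.0, limma-voom (limma 3.58.1), other scalings and filters, each library left out, the replicate number as a block, a lung score covariate (log2 of CPM + 1) and the joined table; fits within libraries with (at least 10 CPM of Scgb3a2) and without airway transcripts were added after the data were examined, as were the searches for AGGTCA alone and the GC box.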

Additional observations from a re-analysis of the deposited data

Results flagged for a closer look

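A library standing apart from the other 3 of its genotype, by its gap relative to the range of the 4, was found in 8 of 92 groups (46 genes in 2 genotypes). Chance gives about 1 in 20 groups, and the genes share libraries. In WT replicate 2, which lacks airway transcripts, Acadl was at 826.6 CPM (the other WT libraries 709 to 727) and Etfa at 369 CPM (330.2 to 336). In WT replicate 1, Plin2 was at 40.1 CPM (46.9 to 48.1). In mutant replicate 2, also without airway transcripts, Acsl1 was at 309 CPM (278 to 281) and Acot13 at 82.99 CPM (80.4 to 80.8). In mutant replicate 1, Acsl3 was at 105 CPM (87.8 to 89.9). In mutant replicate 3, Esrra was at 157 CPM (138 to 140.4) and Ucp3 at 0.413 CPM (0.186 to 0.211).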

How the results depend on the processing

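The direction of every member called either way was kept under each alternative run. Of the 23 members called lower, 11 kept their call under all 18 alternatives and 13 with any 1 library left out. Leaving out each library in turn gave 13 to 25 members lower and 0 to 1 higher, 1 to 4 other pathway genes higher, and 899 to 1137 genes lower and 579 to 850 higher over all genes. Library totals gave 15 members lower, 6 other pathway genes higher and 1856 genes higher over all genes. Keeping genes with any count gave 5 other pathway genes higher. In the 5 libraries with airway transcripts 0 members (Plin2 included) and 609 of all genes were higher. In the 3 without, 812 of all genes were lower and 595 higher, and of the other pathway genes 21 were lower and 5 higher. The same-numbered libraries of the genotypes did not all deviate together (correlations -0.45, 0.73, 0.48 and -0.017 for numbers 1 to 4), so the numbers were not taken to pair libraries. With the replicate number as a block 24 members were lower, 1 was higher, 5 other pathway genes were higher, and 1432 of all genes were lower and 1023 higher. The median over members stayed between -0.23 and -0.10. With 4 libraries per genotype and changes near 0.15 on the log2 scale, many calls sit close to the threshold. For genes under 1 CPM that were not tested, such as Ucp3, depth allows no statement. Acsl6 was also under 1 CPM (0.948 in WT and 0.373 in mutants) but was tested, and its fold change rests on few counts.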
